A study of Mus musculus with 16 samples.

Results

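Genes for the subunits of potassium channels were followed at their start sites through 6 lists of ChIP-seq peaks from mouse embryonic stem cells (ESCs). The members were all protein-coding genes whose symbol starts with Kcn and that have a curated RefSeq messenger RNA (NM) on the GRCm38 genome, with the non-coding Kcnq1ot1 left out. This gave 94 of 21000 such genes, with 131 start sites on 19 chromosomes, in 21 subfamilies from Kcna to Kcnv. R1 mouse ESCs carried a MycER transgene in both cultures. The study uses this name for cells in which Myc T58A is joined to the ligand-binding part of the oestrogen receptor. It also made another R1 MycER clone, for which T58A is not stated. LIF-ESCs were kept in 100 units/ml leukemia inhibitory factor (LIF), and Myc-ESCs were kept without LIF in 50 nM 4-hydroxytamoxifen (OHT), which switches the fusion protein on. Chromatin was precipitated with antibodies against H3K4me3, H3K27me3 and Suz12, in 2 libraries per culture and antibody besides 4 input libraries, and 1 peak list was deposited for each culture and antibody. The study expressed MycER from a transgene in selected clones, and which clone gave the chromatin is not given in the sources used here.

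Potassium channels set the resting potential of cells and end the action potentials of neurons and muscle. Pore-forming subunits open with voltage, with calcium, sodium or pH, or at rest, and auxiliary subunits change their gating or transport to the membrane. Most of these genes act in neurons, heart, kidney or other specialised tissue and are not known as genes of stem cell identity. H3K4me3, a methylated histone H3 lysine, marks the start sites of active genes and of many CpG-rich silent genes. H3K27me3 is laid down by Polycomb repressive complex PRC2, of which Suz12 is a core subunit, and start sites with both marks in ESCs are known as bivalent.

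A gene was counted as marked in a list where a peak of that list touched the 2500 bp on either side of any of its start sites. For width, the bases under peaks were summed over the 5001-bp window at 1 start site of each gene, the one with the most bases over the 6 lists. A mark is called wider where this sum is larger, whatever the number and length of its peaks. Each peak has a score, which is 10 times the negative log10 of the peak caller's p-value and is at least 50.00 in every list. Each list stands alone, with no list per library, so there is no replicate error and no test between the cultures. The 95% Wilson intervals given with the shares cover counting over genes only, and the sequencing depth is unknown. The lists differed in length, with 3120 H3K27me3 peaks for LIF-ESCs but 16717 for Myc-ESCs, and with 11305 and 13907 for Suz12 and 32469 and 30345 for H3K4me3. All 10 pluripotency markers examined, among them Pou5f1, Nanog and Sox2, had H3K4me3 in both cultures, while none of 5 heart muscle markers had a peak in any list. All 5 neuronal markers also had H3K4me3 in both cultures, so this mark at a start site did not set the cells apart from neurons. Some markers also had Polycomb marks by the same rule. The pluripotency gene Esrrb and the neuronal Rbfox3 had Suz12 in both cultures and H3K27me3 in Myc-ESCs. The pluripotency gene Klf4 and the neuronal Syt1 had Suz12 in Myc-ESCs only.

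The 250 bases upstream of the start sites of 6 genes are printed, with 1 gene for each pattern described in the following paragraphs and each CpG dinucleotide in capitals. Kcng4 (chr8:119635681-119635930, minus strand, 4 CpGs) leads the genes with H3K27me3 in LIF-ESCs that have an entry in RefSeq's promoter table. No peak of any list reached these bases of Kcng4, and the nearest lay 1107 bp from its start site (H3K27me3 in Myc-ESCs). Kcnc1 (chr7:46396218-46396467, plus strand, 30 CpGs) had the widest H3K27me3 among genes with that mark in Myc-ESCs only. Kcnj3 (chr2:55435720-55435969, plus strand, 7 CpGs) had Suz12 in LIF-ESCs only, and Kcnj6 (chr16:94997697-94997946, minus strand, 26 CpGs) had it in Myc-ESCs only. Kcnk2 (chr1:189344193-189344442, minus strand, 2 CpGs) had Suz12 in both cultures and no H3K27me3, and Kcnab2 (chr4:152477550-152477799, minus strand, 20 CpGs) had H3K4me3 alone. Nphp4 starts 189 bp from the Kcnab2 start site, so these bases and the H3K4me3 peak are shared with it, and a non-coding gene starts 1141 bp from that of Kcnk2. The sequences are RefSeq's on GRCm38, read 5′ to 3′ on the strand of the gene.
Kcng4: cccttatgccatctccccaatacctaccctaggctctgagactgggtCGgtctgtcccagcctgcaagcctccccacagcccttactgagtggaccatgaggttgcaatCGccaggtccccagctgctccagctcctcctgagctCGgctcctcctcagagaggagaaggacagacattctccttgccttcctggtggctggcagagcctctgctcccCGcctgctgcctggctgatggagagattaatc
Kcnc1: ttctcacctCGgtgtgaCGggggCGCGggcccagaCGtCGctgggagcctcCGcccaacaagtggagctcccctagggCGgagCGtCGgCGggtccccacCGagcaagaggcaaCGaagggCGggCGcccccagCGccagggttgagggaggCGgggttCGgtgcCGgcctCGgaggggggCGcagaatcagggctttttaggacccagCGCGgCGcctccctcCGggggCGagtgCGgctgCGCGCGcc
Kcnj3: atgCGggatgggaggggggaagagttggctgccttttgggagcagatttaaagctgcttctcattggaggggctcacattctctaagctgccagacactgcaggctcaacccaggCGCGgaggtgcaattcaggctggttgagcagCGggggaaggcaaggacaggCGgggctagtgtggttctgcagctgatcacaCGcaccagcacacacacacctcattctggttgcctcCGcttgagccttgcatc
Kcnj6: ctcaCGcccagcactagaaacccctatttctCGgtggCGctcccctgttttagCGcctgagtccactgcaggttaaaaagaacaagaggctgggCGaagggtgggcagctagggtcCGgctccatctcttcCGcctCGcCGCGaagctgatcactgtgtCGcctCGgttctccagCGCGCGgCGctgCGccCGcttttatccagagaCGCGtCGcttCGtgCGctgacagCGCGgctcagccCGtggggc
Kcnk2: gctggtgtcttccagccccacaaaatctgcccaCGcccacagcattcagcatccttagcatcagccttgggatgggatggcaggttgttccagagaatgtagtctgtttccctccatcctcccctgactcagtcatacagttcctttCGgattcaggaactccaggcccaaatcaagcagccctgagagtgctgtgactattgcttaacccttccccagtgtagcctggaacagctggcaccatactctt
Kcnab2: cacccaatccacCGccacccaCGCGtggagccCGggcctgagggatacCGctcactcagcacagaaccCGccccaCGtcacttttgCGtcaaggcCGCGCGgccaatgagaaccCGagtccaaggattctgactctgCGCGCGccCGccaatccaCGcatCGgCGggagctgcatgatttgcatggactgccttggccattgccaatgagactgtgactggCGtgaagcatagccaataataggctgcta

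Suz12 was found at the start sites of 52 of the 94 genes in LIF-ESCs (55.3%, 95% interval 45.3 to 65.0) and of 56 in Myc-ESCs (59.6%, 49.5 to 68.9). Among all 21000 genes the shares were 12.8% and 15.7%. H3K27me3 was found at 13 genes in LIF-ESCs (13.8%, 8.26 to 22.2) and at 49 in Myc-ESCs (52.1%, 42.1 to 61.9), against 3.90% and 11.5% of all genes. For both marks and both cultures, the interval for the potassium channel genes lay above the share of all genes. H3K4me3 was found at 69 genes in LIF-ESCs (73.4%, 63.7 to 81.3) and at 76 in Myc-ESCs (80.9%, 71.7 to 87.5), against 67.8% and 69.3% of all genes, so the interval included the share of all genes in LIF-ESCs and lay above it in Myc-ESCs. A Suz12 or H3K27me3 peak in either culture was present at 64 of the 94 genes (68.1%, 58.1 to 76.6), against 18.8% of all genes. No peak of any list was present at 17 genes (18.1%, 11.6 to 27.1), against 29.2% of all genes.

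**Figure D1:**
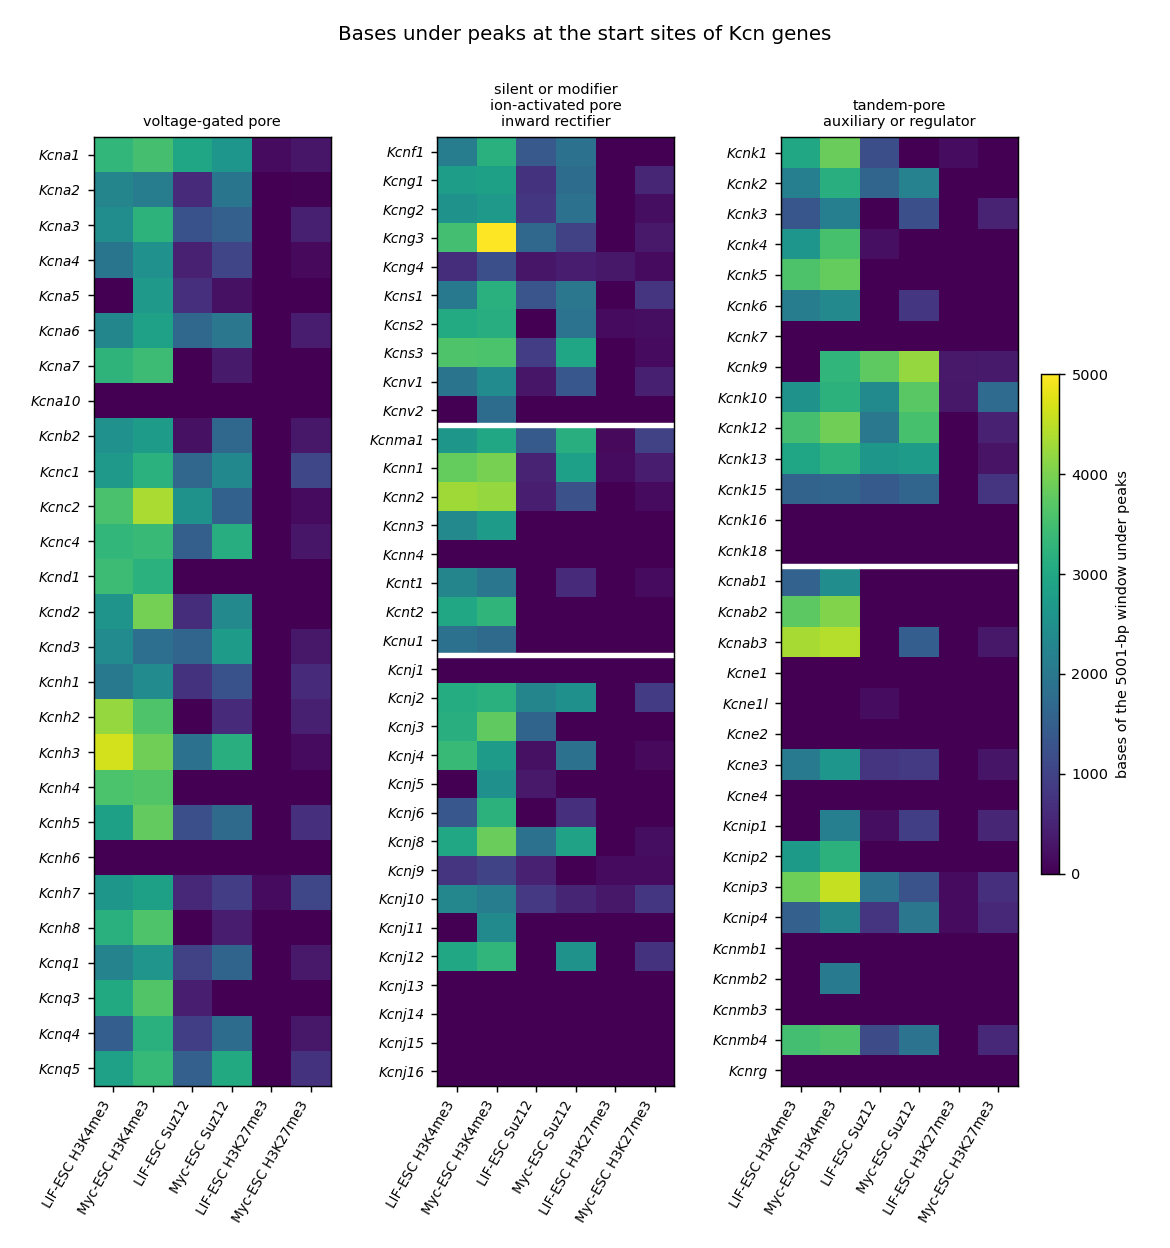
Each row is 1 gene, grouped by role, with 3 of the 94 genes not shown, and each column is 1 peak list; colour gives the bases of the 5001-bp window at the start site that lay under peaks. H3K4me3 covered up to the whole window, Suz12 at most 4206 bp (Kcnk9 in Myc-ESCs) and H3K27me3 at most 1751 bp (Kcnk10 in Myc-ESCs).

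The cultures differed most in H3K27me3. It was listed at 12 genes in both cultures, at 37 in Myc-ESCs only (39.4%, 30.1 to 49.5, against 8.40% of all genes) and at 1 in LIF-ESCs only (1.06%, against 0.833%). Suz12 was shared by 45 genes, with 11 in Myc-ESCs only (11.7%, against 4.22% of all genes) and 7 in LIF-ESCs only (7.45%, against 1.38%). H3K4me3 was shared by 69 genes, with 7 in Myc-ESCs only (7.45%, against 2.34%) and 0 in LIF-ESCs only (against 0.852%). Genes with all 3 marks numbered 11 in LIF-ESCs (11.7%, 6.66 to 19.8, against 2.91% of all genes) and 47 in Myc-ESCs (50.0%, 40.1 to 59.9, against 9.55%). Genes with H3K4me3 and Suz12 but no H3K27me3 numbered 36 in LIF-ESCs (38.3%, 29.1 to 48.4, against 9.11% of all genes). In Myc-ESCs they numbered 9 (9.57%, 5.12 to 17.2, against 5.79%), and this interval included the share of all genes.

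The excess of H3K27me3 genes in Myc-ESCs depended on how the lists were limited, being absent at equal length and present at a common score limit. When only the 3120 Myc-ESC peaks with the best scores were used, so that both lists had the same length, H3K27me3 was listed at 13 genes in each culture (13.8%, against 3.44% of all genes in Myc-ESCs). With these lists, 9 genes were marked in Myc-ESCs only (Kcnc1, Kcnd3, Kcng1, Kcnh5, Kcnj2, Kcnj12, Kcnk3, Kcnk15 and Kcns1) and 9 in LIF-ESCs only (Kcna1, Kcng4, Kcnh7, Kcnip4, Kcnj9, Kcnk1, Kcnk9, Kcnn1 and Kcns2). Only the Myc-ESC list was cut for this, and the weaker LIF-ESC peaks stayed. Of the 9 genes marked in LIF-ESCs only, Kcnk1 alone had no H3K27me3 peak in the full Myc-ESC list. When peaks scoring under 100 were left out, no potassium channel gene kept H3K27me3 in LIF-ESCs, against 0.348% of all genes. In Myc-ESCs 14 kept it (14.9%, against 3.66% of all genes). All 17 H3K27me3 peaks at these genes in LIF-ESCs and 109 of the 126 in Myc-ESCs had a score under 100. Read counts were not used here, so the depth behind the lists could not be compared.

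Voltage-gated pore subunits (Kcna, Kcnb, Kcnc, Kcnd, Kcnh and Kcnq) form the channels that repolarise excitable cells. Of these 30 genes, Suz12 marked 20 in LIF-ESCs against 23 in Myc-ESCs, and H3K27me3 marked 2 (6.67%, 1.85 to 21.3) and 19 (63.3%, 45.5 to 78.1). Only Kcna1 and Kcnh7 among them had H3K27me3 in LIF-ESCs. At Kcna1, a delayed rectifier of axons, H3K27me3 covered 152 bp in LIF-ESCs against 300 bp in Myc-ESCs, Suz12 covered 2953 and 2628 bp, and H3K4me3 covered 3304 and 3518 bp. At Kcnh7, of the ether-à-go-go-related channels, H3K27me3 covered 147 and 1064 bp, Suz12 covered 556 and 905 bp, and H3K4me3 covered 2641 and 2852 bp. Kcna1 thus had the wider Suz12 and Kcnh7 the wider H3K27me3 of this pair in Myc-ESCs.

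Kcnc1 encodes a fast delayed rectifier of neurons that fire at high rates. It lies on the plus strand at chr7:46396219-46438706 (NCBI gene 16502). Without an H3K27me3 peak in LIF-ESCs, it had 6 of them in Myc-ESCs that covered 1069 bp, 4 of them upstream of the start site and 2 downstream, the strongest in an intron at chr7:46398478-46398747 with a score of 117. Suz12 at Kcnc1 covered 1644 bp in LIF-ESCs against 2331 bp in Myc-ESCs, and H3K4me3 covered 2709 and 3191 bp. Kcnq5, a subunit of the M current that steadies the membrane of neurons, had 738 bp of H3K27me3 in Myc-ESCs alone, while its Suz12 went from 1532 to 3033 bp and its H3K4me3 from 2859 to 3350 bp. Kcnh5 and Kcnh1 are both ether-à-go-go channels. Kcnh5 had 678 bp of H3K27me3 in Myc-ESCs alone, with Suz12 at 1219 and 1726 bp and H3K4me3 at 2839 and 3809 bp in LIF-ESCs and Myc-ESCs. Kcnh1 had 592 bp of H3K27me3 in Myc-ESCs alone, with Suz12 at 730 and 1255 bp and H3K4me3 at 2027 and 2420 bp. In all 4 genes Suz12 and H3K4me3 also covered more bases in Myc-ESCs. That H3K27me3 did so follows from the rule that chose these genes.

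Other voltage-gated genes differed in Suz12. Kcnh2, which encodes the channel of the rapid repolarising current of the heart, had no Suz12 in LIF-ESCs but 613 bp in Myc-ESCs, with 449 bp of H3K27me3 there and H3K4me3 at 4218 and 3631 bp. Kcnh8 and Kcna7 had Suz12 in Myc-ESCs only, over 398 and 366 bp with highest scores of 159 and 53.5, and no H3K27me3. Kcnq3, another subunit of the M current, had 416 bp of Suz12 in LIF-ESCs, none in Myc-ESCs and no H3K27me3. Of the A-type channels Kcnd2 and Kcnd3, Kcnd2 had Suz12 in both cultures (648 and 2346 bp) without H3K27me3, while Kcnd3 had Suz12 in both (1624 and 2761 bp) and 321 bp of H3K27me3 in Myc-ESCs. Kcna5, a channel of the atrium of the heart and of smooth muscle, had Suz12 in both cultures (679 and 228 bp, highest scores 109 and 81.5). It had H3K4me3 in Myc-ESCs only (2706 bp) and no H3K27me3. Kcnh4 and Kcnd1 had H3K4me3 without either Polycomb mark, over 3586 and 3644 bp, and 3421 and 3193 bp, in LIF-ESCs and Myc-ESCs. Kcna10 and Kcnh6 had no peak in any list.

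The silent or modifier subunits (Kcnf, Kcng, Kcns and Kcnv) form no channel alone and change the gating of Kcnb channels when they assemble with them. Of these 10 genes, Suz12 marked 8 in LIF-ESCs against 9 in Myc-ESCs, and H3K27me3 marked 2 and 8. This was the largest share with H3K27me3 in Myc-ESCs among the 6 role groups (80.0%, 49.0 to 94.3), with an interval that overlapped that of the voltage-gated pores. With lists of equal length it fell to 2 of 10, against 3 of 14 tandem-pore and 3 of 15 inward rectifier genes. Kcng4 had 330 bp of H3K27me3 in LIF-ESCs against 147 bp in Myc-ESCs, the only gene with the mark in both cultures and fewer bases in Myc-ESCs, with Suz12 at 296 and 394 bp and H3K4me3 at 657 and 1228 bp. Kcns2 had 153 and 176 bp of H3K27me3, no Suz12 in LIF-ESCs and 1913 bp of it in Myc-ESCs, and H3K4me3 at 3048 and 3109 bp. Kcns2 was the 1 gene of the 94 with H3K4me3 and H3K27me3 but no Suz12 peak in LIF-ESCs. Kcns1 had 755 bp and Kcng1 542 bp of H3K27me3 in Myc-ESCs alone. Suz12 covered 1309 and 1992 bp at Kcns1 and 730 and 1772 bp at Kcng1, and H3K4me3 covered 2027 and 3177 bp at Kcns1 and 2780 and 2837 bp at Kcng1. Kcnf1 had Suz12 in both cultures (1387 and 1891 bp) without H3K27me3. Kcnv2, a subunit of photoreceptors, had a single mark, H3K4me3 over 1776 bp in Myc-ESCs, with a score of 52.2.

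Channels opened by calcium, sodium or pH are encoded by the Kcnma, Kcnn, Kcnt and Kcnu genes. Of these 8 genes, Suz12 marked 3 in LIF-ESCs against 4 in Myc-ESCs, and H3K27me3 marked 2 and 4. Kcnma1 encodes the large-conductance channel opened by calcium and voltage, and lies on the minus strand at chr14:23292288-24005110. Its H3K27me3 went from 136 bp with a highest score of 79.0 in LIF-ESCs to 966 bp with 182 in Myc-ESCs, its Suz12 from 1422 to 3143 bp, and its H3K4me3 from 2650 to 2974 bp. Another RefSeq gene starts 786 bp from the start site used for Kcnma1, so the peaks are not those of Kcnma1 alone. Kcnn1, a small-conductance channel of the after-hyperpolarisation, had 145 and 402 bp of H3K27me3, 482 and 2814 bp of Suz12, and 3827 and 3978 bp of H3K4me3. At both genes every mark was wider in Myc-ESCs. Kcnt1, a sodium-activated channel, had Suz12 (588 bp) and H3K27me3 (153 bp) in Myc-ESCs only, while Kcnt2, Kcnn3 and the sperm channel Kcnu1 had H3K4me3 alone in both cultures. At Kcnu1 the H3K4me3 peaks ended 632 and 767 bp short of its start site, and Ash2l starts 1929 bp away. Kcnn4, a channel of red cells and lymphocytes, had no peak.

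Inward rectifiers (Kcnj) hold the membrane near rest, and some of them respond to G proteins or to ATP. Of these 15 genes, Suz12 marked 7 in LIF-ESCs against 6 in Myc-ESCs, and H3K27me3 marked 2 and 6. Kcnj10, a channel of glia, had 314 bp of H3K27me3 in LIF-ESCs against 791 bp in Myc-ESCs, with the highest H3K27me3 score of any potassium channel gene there (220), while its Suz12 covered 829 and 518 bp and its H3K4me3 2318 and 2100 bp. Its neighbour Kcnj9, with a start site 11888 bp away, had 146 and 148 bp of H3K27me3, 466 bp of Suz12 in LIF-ESCs and none in Myc-ESCs, and 753 and 1021 bp of H3K4me3. Within the window, Suz12 was therefore narrower or missing in Myc-ESCs at both neighbours while H3K27me3 was listed there. The nearest Suz12 peak of Myc-ESCs lay 3185 bp from the Kcnj9 start site. With windows of 5000 bp, Kcnj9 was no longer among the genes with Suz12 in LIF-ESCs only. Kcnj2 and Kcnj12 are strong inward rectifiers of heart and skeletal muscle. Kcnj2 had 885 bp of H3K27me3 in Myc-ESCs alone, with Suz12 at 2276 and 2507 bp and H3K4me3 at 3103 and 3172 bp. Kcnj12 had no Suz12 in LIF-ESCs against 2568 bp in Myc-ESCs, the widest of the 11 genes with Suz12 in Myc-ESCs only, together with 730 bp of H3K27me3 in Myc-ESCs and H3K4me3 at 3001 and 3286 bp.

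The G-protein-activated inward rectifiers Kcnj3, Kcnj5, Kcnj6 and Kcnj9 did not share a pattern. Kcnj3 had the widest Suz12 of the 7 genes with this mark in LIF-ESCs only (1613 bp in 4 peaks, the strongest with a score of 239), no H3K27me3, and H3K4me3 at 3158 and 3775 bp. Kcnj5 had 340 bp of Suz12 in LIF-ESCs only, with a highest score of 65.3, and 2520 bp of H3K4me3 in Myc-ESCs only. Kcnj6 went the other way in Suz12, with none in LIF-ESCs but 675 bp in Myc-ESCs, and its H3K4me3 covered 1365 and 3209 bp. Of the ATP-sensitive channels, Kcnj8 had Suz12 in both cultures (1872 and 2875 bp) and 192 bp of H3K27me3 in Myc-ESCs, whereas Kcnj11 had H3K4me3 in Myc-ESCs only (2379 bp). Kcnj1, Kcnj13, Kcnj14, Kcnj15 and Kcnj16 had no peak in any list, among them channels of kidney and other epithelia.

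Tandem-pore channels (Kcnk) carry the background leak current. Of these 14 genes, Suz12 marked 8 in each culture, and H3K27me3 marked 3 in LIF-ESCs and 6 in Myc-ESCs. Kcnk9, an acid-sensitive leak channel, had the widest Suz12 of all 94 genes in both cultures (3758 and 4206 bp, with a highest score of 1369 and 3100, the latter also reached at Kcna1 and Kcnk13), H3K27me3 over 334 and 356 bp, and H3K4me3 in Myc-ESCs only, over 3289 bp. It was the 1 gene with H3K27me3 and Suz12 but no H3K4me3 in LIF-ESCs. Kcnk10, a leak channel opened by stretch and lipids (minus strand, chr12:98429432-98578213), had the widest H3K27me3 in Myc-ESCs, 1751 bp against 326 bp in LIF-ESCs, with Suz12 at 2389 and 3719 bp and H3K4me3 at 2546 and 3213 bp. Kcnk1, a weak inward rectifier of this family, was the only gene with H3K27me3 in LIF-ESCs and not in Myc-ESCs (167 bp, a single peak with a score of 64.0). Kcnk1 also lost its Suz12 peaks, 1210 bp in LIF-ESCs, while its H3K4me3 went from 2981 to 3852 bp.

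Kcnk15 had 770 bp of H3K27me3 in Myc-ESCs alone, with Suz12 at 1417 and 1632 bp and H3K4me3 at 1590 and 1625 bp. Kcnk3, a close relative of the acid-sensitive Kcnk9, had Suz12 (1228 bp) and H3K27me3 (480 bp) in Myc-ESCs only, with H3K4me3 at 1347 and 2149 bp. Kcnk6 had Suz12 in Myc-ESCs only (793 bp) without H3K27me3. The stretch-sensitive channels Kcnk2, Kcnk4 and Kcnk10 differed from each other. Kcnk2 had Suz12 in both cultures (1635 and 2221 bp) and no H3K27me3, whereas Kcnk4 had 196 bp of Suz12 in LIF-ESCs only (score 64.9). Kcnk5, a channel of kidney and other epithelia, had H3K4me3 alone over 3605 and 3818 bp, as part of peaks 11110 and 11297 bp long that ran on downstream. Kcnk7, Kcnk16 and Kcnk18 had no peak in any list.

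Auxiliary subunits and regulators (Kcnab, Kcne, Kcnip, Kcnmb and Kcnrg) accompany the pores. Of these 17 genes, Suz12 marked 6 in each culture, and H3K27me3 marked 2 in LIF-ESCs and 6 in Myc-ESCs (35.3%, 17.3 to 58.7). Kcnip3, a calcium-binding partner of Kcnd channels that also acts as a repressor of transcription, had 153 and 668 bp of H3K27me3, 1899 and 1274 bp of Suz12, and 3900 and 4570 bp of H3K4me3. Kcnip4, of the same family, had 149 and 563 bp of H3K27me3, 747 and 1986 bp of Suz12, and 1535 and 2300 bp of H3K4me3. Both had wider H3K27me3 in Myc-ESCs, but Suz12 was narrower at Kcnip3 and wider at Kcnip4. Kcnip1 had Suz12 in LIF-ESCs without H3K4me3 (180 bp), and in Myc-ESCs 933 bp of Suz12, 2161 bp of H3K4me3 and 540 bp of H3K27me3. Kcnmb4, the neuronal beta subunit of the Kcnma1 channel, had 562 bp of H3K27me3 in Myc-ESCs alone, with Suz12 at 1153 and 1907 bp and H3K4me3 at 3513 and 3605 bp. Its relatives Kcnmb1 and Kcnmb3 had no peak, and Kcnmb2 had H3K4me3 in Myc-ESCs only (2045 bp, score 91.8). Kcnab3 had Suz12 (1504 bp) and H3K27me3 (326 bp) in Myc-ESCs only, while Kcnab2, another beta subunit, had H3K4me3 alone over 3749 and 4046 bp. Kcne1l had a single Suz12 peak in LIF-ESCs (172 bp, score 59.9), and Kcne1, Kcne2, Kcne4 and Kcnrg had no peak.

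The state in LIF-ESCs was next set against H3K27me3 in Myc-ESCs. Of the 36 genes with H3K4me3 and Suz12 but no H3K27me3 in LIF-ESCs, 30 had H3K27me3 in Myc-ESCs (83.3%, 68.1 to 92.1), against 58.7% of the 1913 genes of that state in the whole set. With the lists of each mark cut to equal length, the shares were 19.4% (9.75 to 35.0) and 16.2%. The interval then included the share of all genes. With peaks scoring at least 100, they were 25.7% (14.2 to 42.1) and 30.8%, and the interval again included the share of all genes. Of the 21 genes with H3K4me3 and neither Polycomb mark, 6 had H3K27me3 in Myc-ESCs (28.6%, 13.8 to 50.0), against 4.20% of all genes of that state. Kcnab3, Kcnh2, Kcnj12, Kcnk3 and Kcnt1 were among them, and these 5 also had Suz12 in Myc-ESCs. Of the 22 genes with H3K4me3 and no Suz12 in LIF-ESCs, 11 had Suz12 in Myc-ESCs (50.0%, 30.7 to 69.3), against 7.11% of all such genes. None of the 20 genes without a mark in LIF-ESCs had H3K27me3 in Myc-ESCs (0 to 16.1%), and among all such genes the share was 1.38%.

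Among the 37 genes with H3K27me3 in Myc-ESCs only, the mark covered 27 bp at the least (Kcna2), 337 bp at the median and 1069 bp at the most (Kcnc1). A single H3K27me3 peak was listed at 12 of them, 2 or 3 peaks at 19 and 4 or more at 6. The highest score was under 100 in 27 of the 37. Suz12 was listed in LIF-ESCs at 31 of these genes (83.8%, 68.9 to 92.3), against 67.3% of all 1763 genes with H3K27me3 in Myc-ESCs only. In Myc-ESCs it was listed at 36 (97.3%, 86.2 to 99.5, against 81.6%), and it covered more bases there at 34 (91.9%, 78.7 to 97.2, against 72.4%). Most genes with H3K27me3 in Myc-ESCs only thus had Suz12 in the whole set too.

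Where a mark was present in both cultures, it mostly covered more bases in Myc-ESCs. Suz12 covered more bases in Myc-ESCs at 39 of 45 genes (86.7%, against 81.4% of all genes with Suz12 in both), and its median went from 1219 to 1891 bp. H3K27me3 covered more at 11 of 12 genes (91.7%, against 87.6%), with medians of 152 and 482 bp. H3K4me3 covered more at 57 of 69 genes (82.6%, against 65.1%), with medians of 2725 and 3209 bp. For Suz12 and H3K27me3 the shares were near those of all genes. These sums were taken over the full lists, and those of H3K27me3 and Suz12 are longer in Myc-ESCs than in LIF-ESCs.

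**Figure D2:**
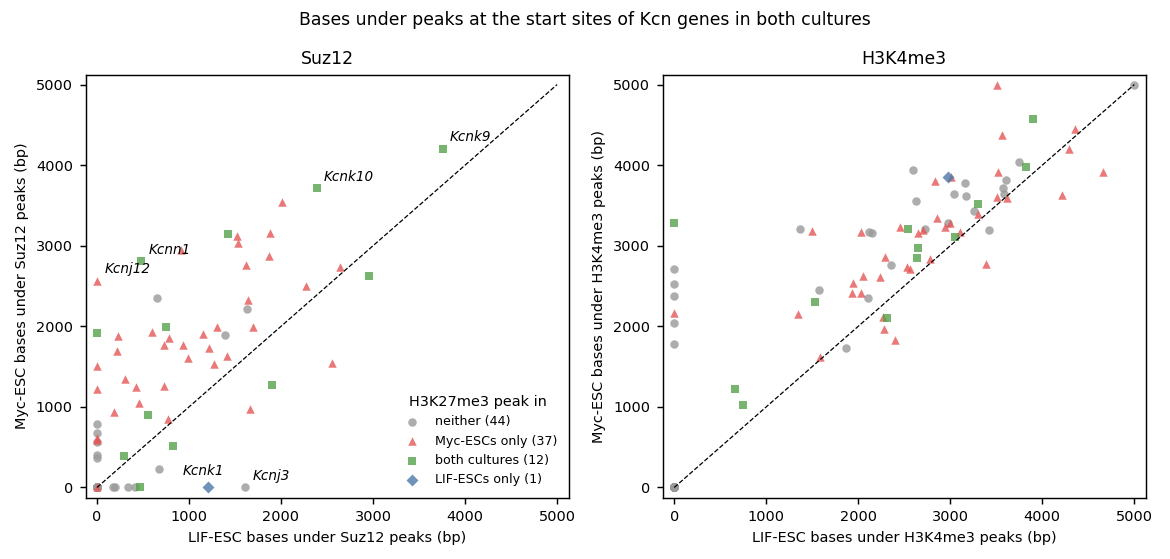
Each point is 1 of the 94 genes, with the bases under peaks at its start site in LIF-ESCs on the horizontal axis and in Myc-ESCs on the vertical axis (bp), for Suz12 on the left and H3K4me3 on the right; the dashed line marks equal values and colour gives the H3K27me3 pattern. Of the 45 genes with Suz12 in both cultures, 39 lie above the line, and Kcnj3 and Kcnk1 lie on the horizontal axis with 1613 and 1210 bp in LIF-ESCs.

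The marks lay at different places around the start sites. Of the 89 H3K4me3 peaks at these genes in Myc-ESCs, 81 ran over a start site, with a median length of 2974 bp. Of the 159 Suz12 peaks in Myc-ESCs, 35 ran over one, and in LIF-ESCs 21 of 142 did. No H3K27me3 peak of the 17 in LIF-ESCs and 2 of the 126 in Myc-ESCs (at Kcnj4 and Kcnq5) ran over a start site. H3K27me3 peaks were short, with medians of 152 bp in LIF-ESCs against 153 bp in Myc-ESCs. In bins of 100 bp, Suz12 in LIF-ESCs was most frequent in the bins centred 550, 650 and 750 bp downstream (55.8% of the genes with Suz12 in each). In Myc-ESCs it was most frequent 450 and 550 bp downstream (78.6% in each). The highest values in all genes were 52.1% at 650 bp and 64.8% at 550 bp. H3K27me3 in Myc-ESCs was most frequent 1150 and 1450 bp downstream (22.4% in each), against 17.7% at 1450 bp in all genes. Of the bins with H3K27me3 in Myc-ESCs, 67.0% were downstream of the start site, against 55.4% in all genes. Within the windows, 42.3% of the H3K27me3 bases in Myc-ESCs lay under Suz12 peaks, against 59.0% in all genes, and 93.0% of the Suz12 bases lay under H3K4me3 peaks, against 86.1%. The strongest H3K27me3 peak at Kcnj2 (chr11:111066813-111067113, in an intron) and that at Kcnk10 (chr12:98576965-98577574, in an intron) lay at positions 649 to 949 and −2447 to −1838 relative to the start sites used. The limits of the bins were set after the data had been seen.

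CpG content went with the marks. The observed over expected CpG ratio within 500 bp of the start site had a median of 0.703 at the 50 genes with H3K27me3 in either culture, 0.544 at the 14 with Suz12 alone of the Polycomb marks, 0.426 at the 13 with H3K4me3 alone and 0.210 at the 17 with no peak. Among all genes the medians of the same groups were 0.725, 0.674, 0.728 and 0.168. The potassium channel genes with H3K4me3 alone therefore had a lower median ratio than all genes of that group. Kcnc1, with a ratio of 0.863, Kcnma1, with 0.909, and Kcng3 and Kcnmb4, each with 0.957, were among the CpG-rich genes with H3K27me3, while Kcng4, with 0.177, had the lowest ratio of the genes with this mark. No peak of any list lay within 500 bp of the Kcng4 start site, so its ratio does not describe the bases under its peaks. The shares were also compared within classes of the ratio, with limits of 0.3 and 0.6 chosen after the data had been seen. At ratios of 0.6 or more, Suz12 marked 65.9% of 41 potassium channel genes in LIF-ESCs (50.5 to 78.4), against 18.2% of all genes, and H3K27me3 marked 73.2% in Myc-ESCs (58.1 to 84.3), against 16.8%. Between 0.3 and 0.6, H3K27me3 in Myc-ESCs marked 55.2% of 29 genes (37.5 to 71.6), against 11.6%, and below 0.3 it marked 12.5% of 24 genes (4.34 to 31.0), against 1.99%. In each of the 3 classes the interval for H3K27me3 in Myc-ESCs lay above the share of all genes.

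**Figure D3:**
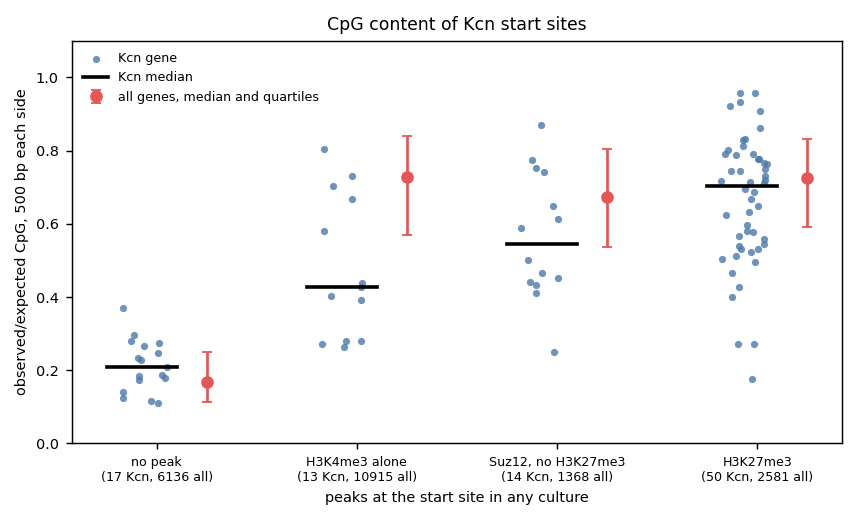
Blue points are potassium channel genes and black bars their medians, placed by the peaks at the start site in either culture, with the observed over expected CpG ratio on the vertical axis; red points and bars give the median and quartiles of all genes in the group. Genes with no peak lie at or below 0.370, and the H3K4me3-alone genes have a median of 0.426 against 0.728 in all genes.

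The other families of ion channels were used for comparison. Suz12 in LIF-ESCs marked 15 of 26 calcium channel subunit genes (Cacn, 57.7%, 38.9 to 74.5), 3 of 14 sodium channel genes (Scn, 21.4%, 7.57 to 47.6), 1 of 4 hyperpolarisation-activated channel genes (Hcn, 25.0%) and 2 of 9 chloride channel genes (Clcn, 22.2%). H3K27me3 in Myc-ESCs marked 12 Cacn genes (46.2%, 28.8 to 64.5), 5 Scn genes (35.7%, 16.3 to 61.2), 2 Hcn genes and 1 Clcn gene (11.1%, 1.99 to 43.5). The Kcn shares of 55.3% and 52.1% lay within the Cacn intervals, and high Suz12 and H3K27me3 shares were thus not particular to potassium channels. The Kcn share with Suz12 in LIF-ESCs lay above the Scn and Clcn intervals, which rest on few genes and overlapped that of the Kcn genes.

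**Figure D4:**
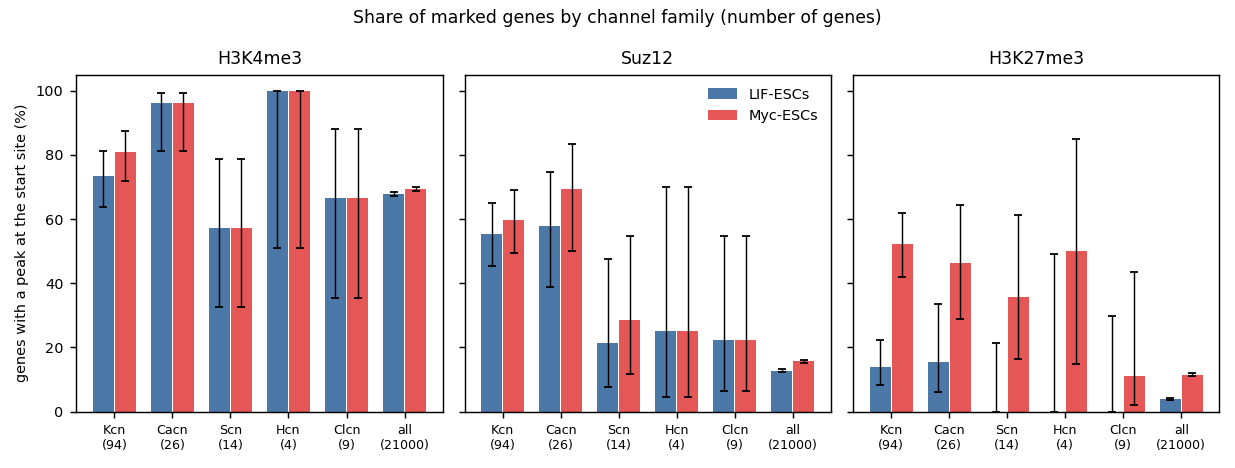
Bars give the percentage of genes with a peak at the start site in LIF-ESCs (blue) and Myc-ESCs (red) for 5 ion channel families and all 21000 genes, with the number of genes under each name and 95% Wilson intervals as error bars, 1 panel per mark. Kcn and Cacn stand together in Suz12 (55.3% and 57.7% in LIF-ESCs) and in H3K27me3 (52.1% and 46.2% in Myc-ESCs).

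Neighbouring potassium channel genes did not always share their marks, although no windows overlapped. On chromosome 3, Kcna2 and Kcna3, with start sites 65405 bp apart, both had H3K4me3 and Suz12 in LIF-ESCs and all 3 marks in Myc-ESCs, while Kcna10, with a start site 81576 bp from that of Kcna2, had no peak. On chromosome 11, Kcnj2 had all 3 marks in Myc-ESCs and Kcnj16, with a start site 42304 bp away, had none. Of the 94 genes, 13 had the start of another RefSeq gene within 2500 bp of the start site used, and any peaks there cannot be told apart from those of the neighbour. They were Kcnab2, Kcnab3, Kcnd3, Kcne3, Kcng2, Kcnh8, Kcnj15, Kcnk2, Kcnk3, Kcnma1, Kcnmb4, Kcnn2 and Kcnu1. Among the other 81, Suz12 marked 55.6% in LIF-ESCs and H3K27me3 marked 50.6% in Myc-ESCs, against 13.3% and 11.9% of all genes without such a neighbour. The E-box CACGTG, which Myc is known to bind and which reads the same on both strands, occurred in the 300-bp promoters of 6 of the 69 genes matched in RefSeq's promoter table (8.70%, 4.05 to 17.7), against 8.09% of all 27025 genes there. These genes were Kcnab1, Kcne4, Kcnh4, Kcnj2, Kcnk5 and Kcnn4, and of them Kcnj2 alone had Suz12 or H3K27me3.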

How the data were processed

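ChIP-seq of H3K4me3, H3K27me3 and Suz12 was done by the authors in LIF-ESCs and Myc-ESCs. Per the labels and the study's methods, reads were aligned to GRCm38 with Bowtie2 2.2.3, and uniquely aligned reads were used to call peaks with MACS 1.4.2 at default settings. The deposited lists give position and a score (10 times the negative log10 of the p-value), 1 list per culture and antibody. How the 2 libraries of a group and the inputs were combined is not given in the sources used here, and read depth is unknown.

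Start sites of NM transcripts were read from the RefSeq annotation of GRCm38.p6 (37867 transcripts, 26032 start sites). A peak counted when at least 1 bp lay within 2500 bp of a start site. Bases were counted once where peaks overlapped. Shares have 95% Wilson intervals. The counting of bases under peaks was checked on simulated peaks (Python 3.11.15, pandas 2.3.3, numpy 2.4.6, matplotlib 3.10.9). No test between cultures was made, since there is 1 list for each. The 6 alternatives planned were a score of at least 100, lists of equal length, windows of 1000 and 5000 bp, the most upstream start site, and at least 100 bp covered. Lists were made equal between the cultures for each of the 3 marks. Genes without a neighbouring start, the CpG classes and the E-box search were added after the data had been seen. The members, role groups and marker lists were chosen with earlier results of these data known.

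Genes were named by rule: every gene with H3K27me3 in LIF-ESCs, the 10 with the most H3K27me3 bases in Myc-ESCs only, every gene with a mark in LIF-ESCs only or with Suz12 or H3K4me3 in Myc-ESCs only, the widest Suz12 without H3K27me3 (5 allowed, 4 found) and the 5 widest H3K4me3 without either Polycomb mark. The results of 3 genes are not reported here one by one, though the counts include them. Further genes that complete a family or a pair of neighbours were chosen after their values were seen. RefSeq's promoter table matched 69 of the 94 genes, and printed promoters were taken from those matched.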

Additional observations from a re-analysis of the deposited data

How the results depend on the processing

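The H3K27me3 counts depended on the score, on the length of the lists and on the narrower window. With a score of at least 100, H3K27me3 was listed at 0 potassium channel genes in LIF-ESCs against 14 in Myc-ESCs, hence at 0 in both cultures, 14 with Myc only and 0 with LIF only. All 3 marks were then at 0 genes in LIF-ESCs against 12 in Myc-ESCs, and H3K4me3 with Suz12 alone at 39 in Myc-ESCs. In Myc-ESCs only, H3K4me3 was at 11 genes and Suz12 at 17. Of the genes with H3K4me3 and Suz12 alone in LIF-ESCs, 25.7% (14.2 to 42.1) gained H3K27me3, against 30.8% of all such genes. That interval included the share of all genes. Under this limit Kcna7, Kcne1l, Kcnj5 and Kcnk4 had no Suz12. Kcna5 had it in LIF-ESCs only, and Kcnmb2 and Kcnv2 had no H3K4me3. With lists of equal length, H3K27me3 was at 13 genes in Myc-ESCs, 4 in both, 9 with Myc only and 9 with LIF only. Of the 9 with LIF only, Kcnk1 alone lacked the mark in the full Myc-ESC list. All 3 marks were at 13 genes in Myc-ESCs, and H3K4me3 with Suz12 alone was at 42 there. The gain was 19.4%, against 16.2% of all genes of that LIF-ESC state. With 1000 bp on either side, H3K27me3 was at 4 genes in LIF-ESCs, 30 in Myc-ESCs, 1 in both and 3 with LIF only, all 3 marks were at 3 and 29, H3K4me3 with Suz12 alone was at 25 in Myc-ESCs, and the gain was 54.8%. With 5000 bp, 2 genes had H3K27me3 in LIF-ESCs only, and the other 23 results stayed within 1.5 times or inside their interval. Under the most upstream start site and under at least 100 bp covered, all 24 results of each did so. The 6 shares without genes near another start stayed inside their intervals. Among the role groups and other channel families, the score limit and the equal lists each moved 10 counts, all of H3K27me3 in Myc-ESCs and all lower. Leaving out a library was not possible, since each list covers a whole group, and no paired analysis was possible because the lists carry no replicate. Without read counts, a missing peak does not show that a mark was absent.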
